A study of Homo sapiens with 12 samples.

Results

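The regions described here are stretches of chromatin that appear in the deposited lists of both single agents and do not appear in the list for the 2 agents together. They were selected on the listed positions alone, as regions of the OSU-ERb-12 list that overlap a region of the enzalutamide list by 1 bp or more and no region of the list for OSU-ERb-12 plus enzalutamide, called the combination list here. The rule gave 1300 of the 17931 OSU-ERb-12 regions, or 7.25%, each with exactly 1 enzalutamide partner, so that 5.13% of the 25317 enzalutamide regions were involved. The combination list held 6248 regions. Membership of the lists is what chose them, and it is given below as a description without a test.

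The lists come from an ATAC-seq study of 22Rv1, an established human prostate cancer line. The 12 samples formed 4 groups of 3, all with the genotype given as WT: vehicle, the single agents enzalutamide (1 µM) and OSU-ERb-12 (100 nM), and the combination OSU-ERb-12 plus enzalutamide, whose own labels give no dose. Treatment lasted 6 h in every group. Only region positions were deposited in the files used here. No level per sample or depth accompanies them. The names of all 3 lists carry the tag neg, which the labels do not define; it may mark a direction of change, and none is assigned here. Absence from the combination list means that a region was not listed, and a region that was not listed may still have changed. The cell type could not be checked against marker levels, because the lists hold none.

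ATAC-seq uses a transposase that cuts DNA where nucleosomes and bound proteins leave it exposed. Nucleosome-free fragments, the kind used here, are in general enriched at promoters and enhancers. Whether the listed regions are enhancers was not tested. Enzalutamide binds the androgen receptor and keeps it from activating its target genes. OSU-ERb-12 acts on oestrogen receptor beta as its agonist, and that nuclear receptor binds DNA on its own response elements or through other factors. The androgen receptor acts largely at enhancers that pioneer factors such as FOXA1 hold open in prostate cells.

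The stretches below are examples of promoter DNA that the regions cover, and they do not stand for the regions in general. Of the 1300 regions, 74 (5.69%) overlapped a window of the promoter table, which is described further below. The DNA of regions away from these promoters was not examined. Each stretch below is the part of a promoter before the gene start that one of the regions covers, outside annotated genes, from RefSeq (GRCh38.p14), 5′ to 3′ on the strand of the gene. CUX2 and TCF7L2 were taken by the naming rule; the others were chosen after the matches were seen, to show a promoter that a pair of genes shares and promoters with or without a match. Capitals mark exact matches, on either strand, to GGGCGG (SP/KLF factors), CCAAT (NF-Y), CCGGAAGT (ETS factors), CACGTG (E-box) or the NRF1 core palindrome of 10 bases (in the UBE4A line).
CUX2, chr12:111033915-111034164, plus strand: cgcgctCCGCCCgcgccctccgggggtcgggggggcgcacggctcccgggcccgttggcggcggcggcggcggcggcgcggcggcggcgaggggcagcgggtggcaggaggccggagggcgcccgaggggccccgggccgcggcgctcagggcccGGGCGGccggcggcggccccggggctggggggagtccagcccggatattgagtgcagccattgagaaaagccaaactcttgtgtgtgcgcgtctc
TCF7L2, chr10:112949997-112950050, plus strand: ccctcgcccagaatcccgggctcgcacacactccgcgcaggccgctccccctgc
SAP30BP, chr17:75667155-75667337, plus strand: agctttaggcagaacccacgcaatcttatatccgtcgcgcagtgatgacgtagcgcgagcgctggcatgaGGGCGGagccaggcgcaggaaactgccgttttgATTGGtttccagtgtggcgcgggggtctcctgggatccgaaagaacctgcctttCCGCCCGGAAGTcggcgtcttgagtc
UBE4A, chr11:118359351-118359550, plus strand: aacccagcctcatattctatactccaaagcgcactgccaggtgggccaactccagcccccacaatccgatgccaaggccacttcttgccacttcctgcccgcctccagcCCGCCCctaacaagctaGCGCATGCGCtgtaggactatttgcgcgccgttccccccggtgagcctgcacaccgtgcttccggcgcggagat
TAF4B, chr18:26226195-26226300, plus strand: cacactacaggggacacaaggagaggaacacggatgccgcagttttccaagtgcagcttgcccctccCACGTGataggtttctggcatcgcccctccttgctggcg
NHLRC3, chr13:39038090-39038250, plus strand: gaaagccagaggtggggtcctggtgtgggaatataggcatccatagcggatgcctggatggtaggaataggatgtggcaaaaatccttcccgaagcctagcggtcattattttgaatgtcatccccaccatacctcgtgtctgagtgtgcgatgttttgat

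The CUX2 stretch, upstream of a homeobox factor gene, is 81.2% G and C and holds a GGGCGG match on each strand. TCF7L2 encodes a transcription factor of the Wnt pathway, and its covered stretch of 54 bases is 75.9% G and C with no match. SAP30BP and RECQL5, a DNA helicase gene, start on opposite strands from the same stretch, which holds an ETS match that overlaps a GGGCGG match, a separate GGGCGG match and a CCAAT match. The stretch of the ubiquitin ligase gene UBE4A holds an NRF1 and a GGGCGG match, and that of TAF4B, a subunit gene of the TFIID complex, an E-box match. NHLRC3 shares its stretch with PROSER1 on the other strand, with 49.7% G and C and no match.

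Promoters with one of the regions were rich in G and C, as were those in the enzalutamide list alone. The promoter table, with 250 bases before and 50 after a start, holds 22199 starts of 15843 of the 20037 protein-coding genes, and 89 of these windows, from 78 genes, overlapped one of the 1300 regions. Their median G and C content was 66.0%, against 62.3% over all windows and 67.0% over the 2059 windows that held an enzalutamide region and no OSU-ERb-12 region. GGGCGG was present in 69.7% of the 89 windows (95% interval 59.0 to 79.0), in 72.7% of the 2059 windows and in 56.3% of all windows. CCAAT was present in 30.3%, against 34.7% of all windows. The intervals are exact Clopper-Pearson ones and cover counting only, and windows of 1 gene, or of neighbouring genes, can share bases.

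Matches to receptor and lineage motifs were few. None of the 89 windows held the androgen receptor palindrome (AGAACA and TGTTCT, 3 bases apart), and neither did any of the 22199 windows. The oestrogen receptor palindrome (GGTCA and TGACC, 3 bases apart) was found in 1 window, at SLC35B2, and in 8 windows (0.0360%) of all. That match, at chr6:44257757-44257769, lay outside the region itself, which spans 44257451 to 44257700. The forkhead motif TGTTTGC was found in 5 windows (5.62%, against 3.40% of all) and TGTTTAC in 1 (1.12%, against 2.85%). The AP-1 motif TGANTCA was found in 4 (4.49%, against 6.15%), the ETS motif in 5 (5.62%, against 5.34%) and the NRF1 palindrome in 2 (2.25%, against 1.5%). Some of these windows share bases: 2 overlapping windows of LIN54 count for TGTTTGC. The overlapping windows of SAP30BP and RECQL5 both count for AP-1 and for ETS. SORT1, the gene of the sorting receptor sortilin, had both forkhead forms, and ATF5, the gene of a stress-response factor, had an AP-1 match. The E-box was present in 3 of the 89 windows (3.37%, interval 0.701 to 9.54) and in 8.34% of all windows. It was present in 8 of the 45 windows, from 40 genes, that held a region of all 3 lists (17.8%, 8.002 to 32.1). Windows with an OSU-ERb-12 region of neither kind had it in 9.83% of 173, and the 2059 windows in 9.32%. In the 45 windows the ETS motif was found in 5 (11.1%) and TGTTTGC in 0.

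Most regions that the single agents shared were not in the combination list. The single agents shared 1564 regions, counted in the OSU-ERb-12 list (8.72% of it). Of these, 1300 were absent from the combination list, a share of 83.1% (95% interval 81.2 to 84.9), and 264 were in all 3 lists. Counted from the other side, 1297 of 1562 enzalutamide regions shared with OSU-ERb-12 were absent, or 83.0%. For comparison, 95.6% of all OSU-ERb-12 regions and 96.0% of all enzalutamide regions were absent from the combination list. Shared regions were thus found there in 16.9% of cases, and OSU-ERb-12 regions without an enzalutamide partner in 3.24%, against 4.43% for the whole list. The combination list is the shortest of the 3, and how far its length sets these shares was not tested.

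The 2 single-agent regions of a pair overlap by the rule, so their closeness is described here and is not a result. Of the 1300 pairs, 185 (14.2%) had identical boundaries, in 482 (37.1%) the OSU-ERb-12 region lay inside the enzalutamide region, in 146 (11.2%) it was the reverse, and 487 (37.5%) were staggered. The median distance between the centres was 50 bp, which is 1 step of the grid on which all boundaries lie. For regions in all 3 lists it was also 50 bp. The OSU-ERb-12 region had a mean width of 239.1 ± 69.1 bp and its enzalutamide partner 306.6 ± 137.3 bp (SD over 1300 regions each). OSU-ERb-12 regions in no other list averaged 227.8 ± 51.0 bp and those in all 3 lists 252.7 ± 87.4 bp. At the edge of the rule, 62 pairs overlapped by 50 bp only, and 26 further OSU-ERb-12 regions absent from the combination list touched an enzalutamide region without overlapping it.

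Few of the regions had a combination region close by. The median distance to the nearest one was 106.6 kb (quartiles 38.2 and 273.1 kb), and for OSU-ERb-12 regions in no other list it was 104.4 kb. Only 17 of the 1300 (1.31%) lay within 500 bp and 121 (9.31%) within 10 kb, against 0.587% and 8.20% of the OSU-ERb-12 regions in no other list. The plot of distances to the nearest combination region shows both groups side by side. Just inside the rule, 2 regions touched a combination region without overlap. One lay at LASP1, which encodes a LIM and SH3 domain protein of the actin skeleton, at 38871051 to 38871250 on chromosome 17, and the combination region began at the next base, 38871251. The other lay on chromosome 9, at -499740 bp (upstream) from the nearest start in the table, that of BRINP1.

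**Figure D1:**
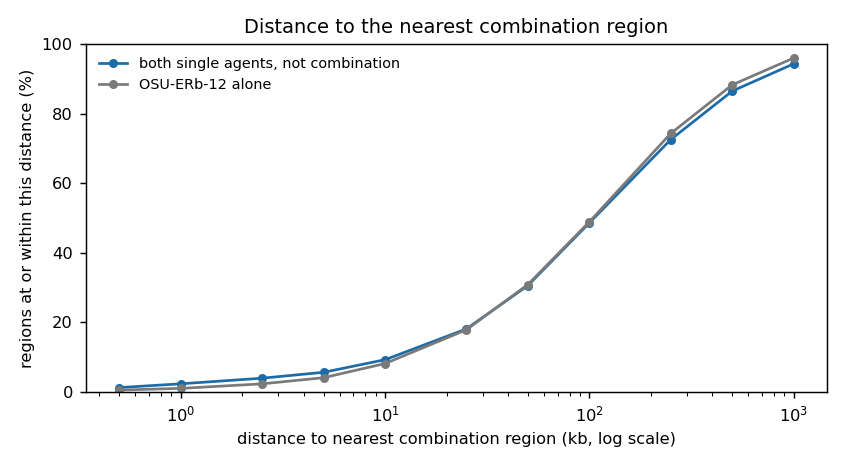
Share of regions (y axis, %) at or within a given distance of the nearest combination region (x axis, kb, log scale), for the 1300 regions shared by the single agents and absent from the combination list and for the 15837 OSU-ERb-12 regions in no other list. The curves nearly coincide beyond 10 kb, where they stand at 9.31% and 8.20%.

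In 6 cases a single enzalutamide region bridged the OSU-ERb-12 region and a separate combination region. At PBX3, a homeodomain partner gene of HOX factors, the enzalutamide region ran from 125746751 to 125748450 on chromosome 9, while the OSU-ERb-12 region covered 125747551 to 125747850 and the combination region 125746901 to 125747150. The nearest start to another was that of ZCCHC14, at -187926 bp (upstream), and there the enzalutamide region at 87680851 to 87681850 on chromosome 16 likewise held the OSU-ERb-12 region at its lower end and the combination region at 87681401 to 87681750. In both places the OSU-ERb-12 and combination regions lay apart within the 1 enzalutamide region. These genes were named after the positions were seen.

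About 1 region in 4 lay at an end of a protein-coding gene. Those within 1 kb of either end numbered 333 of the 1300 (25.6%, interval 23.3 to 28.1). Those within 1 kb of a start listed in the promoter table, alternative starts included, numbered 282 (21.7%, 19.5 to 24.0). At the far end of a gene, with no start near, were 35 (2.69%) and 27 (2.08%) were at a start of a gene that is not protein-coding. Gene bodies away from the ends held 504 (38.8%), and 463 (35.6%) lay outside protein-coding genes and their ends. Since the promoter table lacks some genes, the share at starts is a lower count than a full annotation would give. The table used here has no start on chromosome 8, so the 66 regions there count as away from starts, as do those of the other classes.

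The share at starts differed widely between classes of listed region. It was 3.77% (3.48 to 4.08) for OSU-ERb-12 regions in no other list and 18.4% (17.9 to 18.9) for enzalutamide regions in no other list. The 1300 regions, at 21.7%, were nearer to the enzalutamide value, but by the rule each of them overlaps an enzalutamide region. How far that overlap sets their share was not tested. Regions in all 3 lists had 33.7% (28.0 to 39.8), and OSU-ERb-12 regions shared with the combination list alone 8.87% (6.59 to 11.6). The whole enzalutamide list had 19.2% at starts, the whole OSU-ERb-12 list 5.66% and the whole combination list 12.2%. No p-value is given, because regions of 1 list are not replicates.

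**Figure D2:**
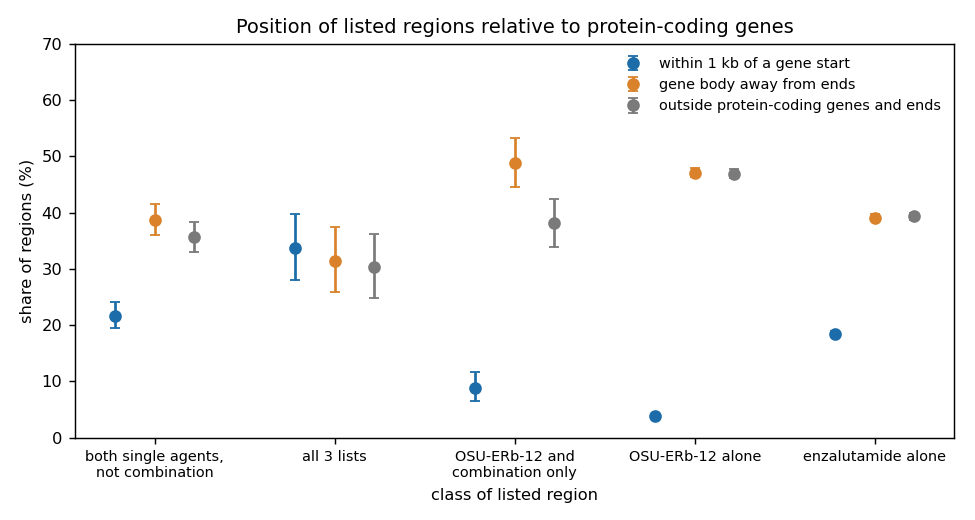
Share of regions (y axis, %) within 1 kb of a protein-coding gene start, in gene bodies away from the ends, and outside protein-coding genes and ends, for 5 classes of listed region (x axis); points are shares and bars exact 95% intervals for counting. The regions shared by the single agents and absent from the combination list stand at 21.7% at starts, between enzalutamide alone (18.4%) and all 3 lists (33.7%).

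Around the starts themselves the fullest bin of the 1300 regions held a smaller share of them than that of regions in all 3 lists. A smaller share of the 1300 also lay within 1 kb of a start (21.7%, against 33.7%), and the breadth around starts was not measured. The fullest bin of 200 bp for the 1300 was 200 to 400 bp downstream of the start, with 42 regions (3.23%), and the bin just downstream of the start held 39 (3.00%). Of the 264 regions in all 3 lists 21 (7.95%) had their middle in that latter bin. Regions centred within 1 kb numbered 104 upstream and 162 downstream. Off chromosome 8, the median distance to the nearest start was 25.8 kb for 1234 of the 1300, 10.2 kb for 253 regions in all 3 lists and 51.6 kb for 14550 OSU-ERb-12 regions in no other list. A promoter window was overlapped by 74 of the 1300 (5.69%, 4.50 to 7.09) and by 39 of the 264 (14.8%, 10.7 to 19.6).

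**Figure D3:**
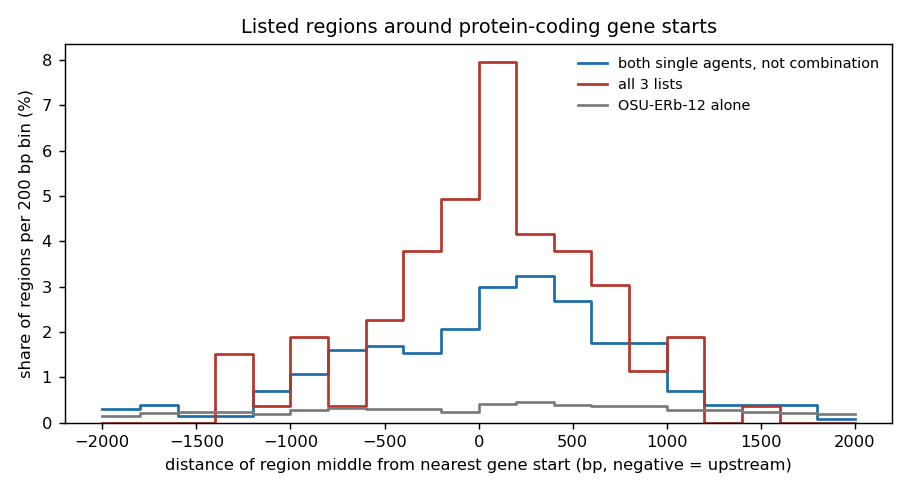
Share of regions (y axis, % per bin of 200 bp) by distance of the region middle from the nearest protein-coding gene start (x axis, bp, negative values upstream). The regions absent from the combination list reach 3.23% per bin, those in all 3 lists 7.95%, and OSU-ERb-12 regions in no other list at most 0.455%.

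Shared regions were absent from the combination list less often at starts than elsewhere. Of 371 shared regions within 1 kb of a start 282 were absent (76.0%, interval 71.3 to 80.3), and of the other 1193 shared regions 1018 (85.3%, 83.2 to 87.3). The same order held for OSU-ERb-12 regions without an enzalutamide partner, of which 7.30% at starts and 3.07% elsewhere were in the combination list. Wider regions were also absent less often. The share was 85.5% (83.1 to 87.7) at 200 bp and 81.4% (76.6 to 85.6) at 250 bp. It was 78.5% (71.1 to 84.8) at 300 bp and 77.2% (70.2 to 83.3) at 350 bp or more. A wider region has more bases on which an overlap of 1 bp can fall, and how far this sets the order was not tested. Away from starts the fall was not steady, with 87.4%, 82.4%, 81.5% and 82.8% in the same order of width. Among the widest regions at starts 21 of 37 were absent (56.8%, 39.5 to 72.9), against 111 of 134 away from starts (82.8%, 75.4 to 88.8).

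**Figure D4:**
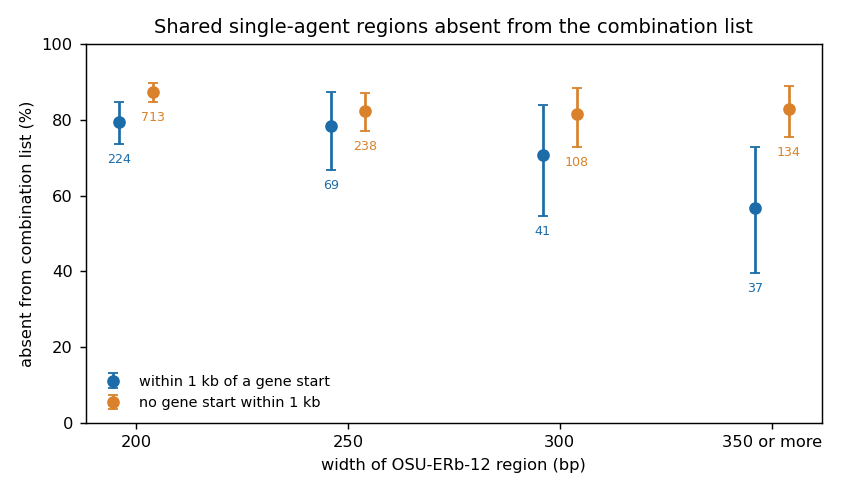
Share of regions common to both single agents that were absent from the combination list (y axis, %), by width of the OSU-ERb-12 region (x axis, bp) and by distance to a gene start; bars are exact 95% intervals for counting and the numbers under them count the shared regions. At starts the share runs from 79.5% at 200 bp to 56.8% at 350 bp or more, and away from starts it stays between 81.5% and 87.4%.

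When regions within 10 kb of each other were grouped, 1264 of the 1300 (97.2%) stood alone and 18 pairs remained, a share that depends on how few the regions are. Per Mb, chromosome 19 held 0.905, chromosome 12 0.766 and chromosome 1 0.667, and chromosome X held 0.154. The OSU-ERb-12 list was itself dense on chromosomes 19, 12 and 1, with 9.51, 10.6 and 9.92 regions per Mb. There the 1300 made up 9.52%, 7.22% and 6.72% of that list, against 7.25% over the whole list. Relative to the OSU-ERb-12 list, the 1300 made up between 4.73% (chromosome 8) and 9.65% (chromosome 5) of the regions on an autosome, and 24 of 107 (22.4%, interval 14.9 to 31.5) on chromosome X. On X the OSU-ERb-12 list itself was sparse, with 0.686 regions per Mb against 2.97 to 10.96 on the autosomes, and the 24 were 3.77% of the 637 enzalutamide regions there. The share of shared regions that were absent ranged from 75.7% on chromosome 15 to 89.5% on chromosome 12, apart from chromosome 21 with 9 of 9, and was 77.4% on X.

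**Figure D5:**
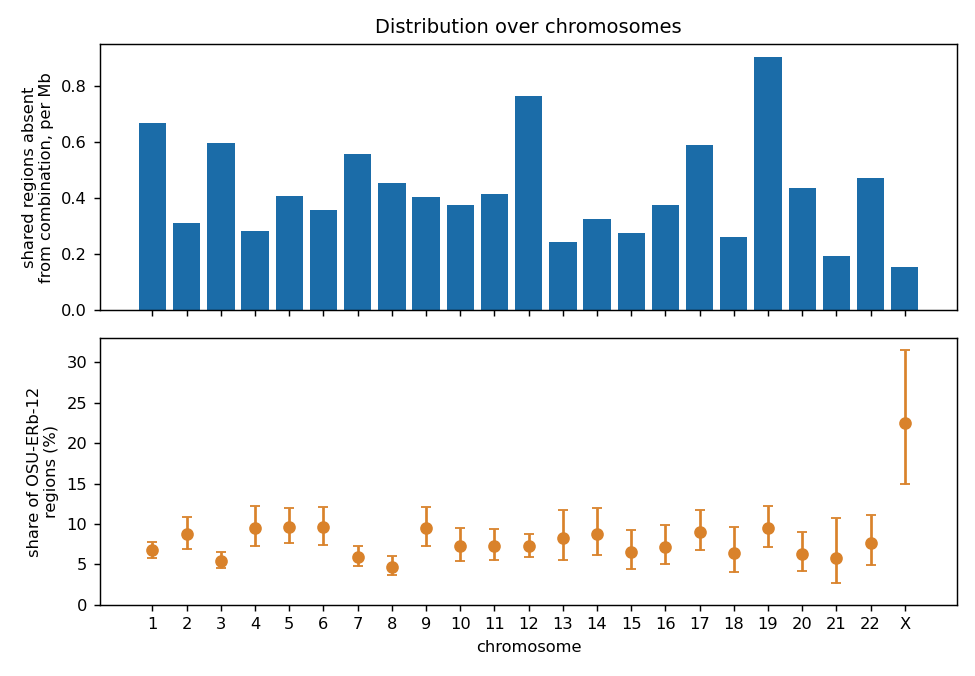
Shared regions absent from the combination list per Mb (upper y axis, bars) and as a share of the OSU-ERb-12 regions of the chromosome (lower y axis, %, with exact 95% intervals for counting), by chromosome (x axis, without Y, which held none). Chromosome 19 has the highest density at 0.905 per Mb, and X the highest share at 22.4%.

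At the level of genes, 1170 of the 20037 protein-coding genes (5.84%) had one of the regions in their locus, taken as the gene and 10 kb beyond each end. A locus held an OSU-ERb-12 region of any kind at 39.1% of genes, an enzalutamide region at 58.3% and a combination region at 21.7%. Of the 1170 genes, 1103 had 1 such region, 62 had 2 and 5 had 3. A combination region lay elsewhere in the locus at 393 of the 1170 (33.6%, interval 30.9 to 36.4), nearly the same share as at genes that had an OSU-ERb-12 region and none of the 1300 (34.0%, 32.8 to 35.1). Loci of the 1170 were longer than usual, with a median of 67.4 kb against 44.1 kb over all genes. Within 1 kb of a start, 312 of 15843 genes (1.97%) had one of the regions, and 28 regions lay at starts on both strands.

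The 5 genes with 3 regions were POLR2E, UCK2, BORCS5, FGD4 and AUTS2. POLR2E, a subunit gene of RNA polymerases on chromosome 19, had all 3 OSU-ERb-12 regions of its locus among them, none inside the gene: 1083151 to 1083350, 1085451 to 1085750 and 1098001 to 1098250. Its locus of 28.8 kb held 6 enzalutamide regions and no combination region. UCK2, which encodes a uridine-cytidine kinase of nucleotide salvage, had 1 at its start, at 165827951 to 165828200 on chromosome 1, centred 461 bp downstream of the start, and the others inside the gene. BORCS5 encodes a subunit of a complex that positions lysosomes, and its region at 12350551 to 12350850 on chromosome 12 lay 550 bp from a combination region. The AUTS2 locus is over 1 Mb long (1215 kb) and held 19 OSU-ERb-12, 9 enzalutamide and 3 combination regions.

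Shorter loci with 2 regions included several genes of signalling and epithelial function. EREG, the gene of the EGF receptor ligand epiregulin, had 74365751 to 74366100 and 74367751 to 74367950 on chromosome 4, the first centred 780 bp downstream of its start. These were the only OSU-ERb-12 regions and the only enzalutamide regions of its locus, which held no combination region. TRAF4, an adaptor gene of receptor signalling, had a region at 28744251 to 28744500 on chromosome 17, 240 bp inside one end of the gene, and another with identical boundaries in both single-agent lists at 28748001 to 28748200. MLPH, the melanophilin gene, had both of its OSU-ERb-12 regions before its start, centred 760 bp and 6810 bp upstream. OPTN (an autophagy receptor), TADA3 (a subunit of histone acetyltransferase complexes), GLRX3 (a glutaredoxin), SCNN1A (a sodium channel subunit) and the zinc finger gene ZFX also had 2 each.

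Among the androgen-regulated genes, 7 of 40 (17.5%) had one of the regions, beside 5.84% of all genes. Their loci had a median of 62.3 kb, against 44.1 kb over all genes. An OSU-ERb-12 region lay in 52.5% of these loci and an enzalutamide region in 82.5%, against 39.1% and 58.3% over all genes. The 7 include SPDEF, which is counted again among the prostate lineage factors below. PLPP1, a lipid phosphatase gene, had 2, at 55509301 to 55509500 and 55534001 to 55534200 on chromosome 5, and no combination region. At ELL2, an elongation factor gene, the region at 95961701 to 95961900 on chromosome 5 spanned an end of the gene and had identical boundaries in both single-agent lists. The promoter table gave no strand for ELL2, so that end was not identified as start or far end. The same region lay 201 bp upstream of a start of CAST, the gene of the protease inhibitor calpastatin, and CAST was the single gene with 2 regions within 1 kb of its listed starts. UAP1, which makes the UDP-sugar used for glycosylation, had a region centred 256 bp upstream of its start, at 162561151 to 162561400 on chromosome 1, and a combination region began 200 bp further on, at 162561601. ZMIZ1, a coactivator gene of the androgen receptor, had 1 inside the gene and 1050 bp from a combination region. KLK2 and KLK3, genes of prostate kallikreins, share 1 region on chromosome 19 at 50870001 to 50870350.

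Among the receptor genes, ESR2, which encodes oestrogen receptor beta, held 2 OSU-ERb-12 and 3 enzalutamide regions, none of which overlapped. ESR1, FOXA1, HOXB13, FKBP5, TMPRSS2 and MYC had none of the 1300 either. Of 48 nuclear receptor genes 4 (8.33%, beside 5.84% of all genes) had one, namely NR2F1, PPARG, VDR and RXRA. At NR2F1, an orphan receptor gene, it was centred 928 bp downstream of the start, at 93584051 to 93584250 on chromosome 5, with a combination region 1950 bp away. VDR, the vitamin D receptor gene, had it inside the gene at 47870051 to 47870300 on chromosome 12, with no combination region in the locus. BCOR, a corepressor gene, had 1 inside the gene.

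Oestrogen-regulated genes with a region numbered 4 of 24 (16.7%), beside 5.84% of all genes. Their loci had a median of 57.2 kb, against 44.1 kb over all genes. An OSU-ERb-12 region lay in 62.5% of these loci and an enzalutamide region in 79.2%. MYB, a proto-oncogene transcription factor, had identical boundaries in both single-agent lists at 135181901 to 135182100 on chromosome 6, centred 692 bp downstream of its start. CCND1, the cyclin D gene, had 69640001 to 69640200 on chromosome 11, 956 bp outside the gene, and the nearest combination region was 432550 bp away. IGFBP4, an inhibitor of insulin-like growth factors, had 1 inside the gene, and the carbonic anhydrase gene CA12 had 1 centred 8304 bp upstream of its start.

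Prostate lineage factors also gave 4 of 24 (16.7%), beside 5.84% of all genes. Of these factors 66.7% had any OSU-ERb-12 region and 75% any enzalutamide region. TBX3, a T-box repressor gene, had 2 regions inside the gene, at 114672851 to 114673050 and 114683501 to 114683950 on chromosome 12. They were both of the OSU-ERb-12 regions in the locus, which held 8 enzalutamide regions and no combination region. CUX2 had its region across the gene start, at 111033901 to 111034350, as in the stretch printed above. It was the single one of 12 OSU-ERb-12 regions in that locus to meet the rule, and 4 combination regions lay elsewhere in it. FOXA2, a forkhead pioneer factor gene, and SPDEF, an ETS factor gene of secretory epithelium, had 1 each inside the gene. Keratin and other luminal or basal markers gave 1 of 22 (KRT7), and neuroendocrine and neural genes 2 of 22 (ENO2 and POU3F2).

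Growth and cell cycle genes had a few regions, some of them at starts. CDK4, the cyclin D partner kinase, had a region with identical boundaries in both single-agent lists, centred 510 bp downstream of its start, at 57751701 to 57751900 on chromosome 12, and a combination region 950 bp away. CDK2, the S-phase kinase, had one across a gene end, and its locus also held a region of all 3 lists. With CCND1 and CDKN2C, an inhibitor of CDK4 and CDK6, cell cycle genes gave 4 of 32 (12.5%), beside 5.84% of all genes. JUN, the AP-1 subunit gene, had a region centred 897 bp downstream of its start, at 58783051 to 58783250 on chromosome 1, and was the single one of 23 AP-1 and immediate early genes to do so (4.35%). Of the EGF receptor family and its feedback genes, EREG and SPRY1, a feedback inhibitor of receptor kinases, made 2 of 19 (10.5%).

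In the Wnt pathway 3 of 31 genes (9.68%, beside 5.84% of all genes) had one, all near a gene end. The region of TCF7L2 was centred 297 bp upstream of its start. LRP5, a Wnt coreceptor gene, had 1 lying 62 bp outside the gene, and the ligand gene WNT7B 1 lying 439 bp outside, and none of these loci held a combination region. Chromatin regulators gave 6 of 45 (13.3%), with a median locus of 103.9 kb against 44.1 kb over all genes. ARID1B, a subunit gene of the BAF remodelling complex, had 2, and the histone demethylase genes KDM5B and KDM5C and the remodeller gene CHD1 had 1 each, as did KMT2E and HDAC4. Adhesion and transition genes gave 2 of 21 (9.52%). LAMC1, a laminin gene, had 2 upstream of its start, of which the one at 183022651 to 183022950 on chromosome 1 had identical boundaries in both single-agent lists, and TGFBR2, a TGF-beta receptor gene, had 1 inside the gene.

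The remaining gene lists gave between 0 and 8.33%, beside 5.84% of all genes. Glycolysis genes gave 2 of 24 (8.33%; PKM and SLC2A1), ribosomal protein genes 2 of 33 (6.06%; RPL5 and RPS20), p53 and apoptosis genes 1 of 25 (4%; MCL1) and interferon and NF-kB genes 1 of 28 (3.57%; NFKBIE). SLC2A1, the glucose transporter gene with 15 enzalutamide regions, had 1 inside the gene at 42930551 to 42930750 on chromosome 1. None of 18 glucocorticoid response genes and none of 22 KLF and SP factor genes had one, although 88.9% and 86.4% of them held an enzalutamide region and 55.6% and 31.8% an OSU-ERb-12 region. Olfactory receptor genes, which a prostate line should not use, gave 1 of 37 (2.70%; OR2A4). With so few genes in each list, and with loci of different lengths, no list is set apart from the others here.

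A few regions lay at microRNA genes. Within 1 kb of a hairpin were 8 of the 1300 (0.615%) and 37 of the 17931 OSU-ERb-12 regions (0.206%). The mature forms of the 3 closest microRNA genes, one of which is listed as 2 arms, are given from RefSeq (GRCh38.p14) with the seed, bases 2 to 8, in capitals.
hsa-miR-658: gGCGGAGGgaaguagguccguuggu
hsa-miR-365a-5p: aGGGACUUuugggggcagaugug
hsa-miR-365a-3p: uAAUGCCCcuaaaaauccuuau
hsa-miR-5687: uUAGAACGuuuuagggucaaau

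The region at MIR658 lay 172 bp from the hairpin, at 37843801 to 37844100 on chromosome 22. It was also centred 102 bp upstream of a start of the protein-coding gene ANKRD54. The region at MIR365A lay 230 bp from its hairpin, at 14309601 to 14309850 on chromosome 16. MIR5687 lies inside PLPP1, and the region 375 bp from it is one of the pair described for that gene. The 4 mature forms have different seeds. MIR144 and MIR4732, neighbours on chromosome 17, shared 1 region, and MIR148B, MIR574, MIR7111 and MIR4466 had 1 each.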

How the data were processed

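ATAC-seq regions of 22Rv1 cells were analysed for 3 treatments. Per the labels' protocols, cells were treated in biological triplicate and nucleosome-free fragments were separated with ATACSeqQC; FastQC, Trimmomatic and hg38 are named in the submitters' processing notes. Not given in the sources used here are aligner, peak caller, threshold, comparison, pooling and transposase offset. The deposited files give chromosome, start and end, and their deposited score is 0 in every row. Depth per sample is unknown. Lists were matched to treatments through the prefix shared with sample titles; for OSU-ERb-12 that prefix is WT, and no label explains it.

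Overlaps were computed with Python 3.11.15 and pandas 2.3.3, and the members were checked against bedtools 2.31.1 and on simulated data. Coordinates are 1-based. Genes and promoters came from RefSeq (GRCh38.p14). Shares have exact 95% intervals (scipy 1.17.1), which cover counting only. Genes are named by a rule: the 20 with most regions in the locus, genes with 2 or more at a start, up to 4 per gene list, and 9 fixed genes; the text prints those that lead. KLK2, KMT2E, HDAC4 and the genes named for motif matches, microRNAs or a combination region close by were named after their values were seen. Some genes of the rule, and the counts of the coregulator and DNA repair lists, are not reported here. The regions, the 21 gene lists and the rule were chosen with earlier results of these data known.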

Additional observations from a re-analysis of the deposited data

How the results depend on the processing

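The number of regions stayed between 1222 and 1297 when the overlap had to reach 50% of the shorter region, a combination region within 500 bp counted as present, neighbours within 1 kb merged, enzalutamide regions counted, or autosomes alone. The share at gene ends became 38.7% with 5 kb either side and 32.5% with all annotated genes, both by construction, and was 23.6% to 26.3% in the other settings. Genes with a region numbered 740 with the gene body alone, 2340 with 50 kb either side and 1110 with the stricter overlap. The share absent from the combination list was 76.7% at gene ends alone and 85.6% away from them, and 82.8% and 82.0% under the overlap and distance settings. The median distance to a combination region was 104.3 kb on autosomes alone, a setting added after the data were seen. Single samples could not be left out, since the lists carry no value per sample. No paired analysis was possible because the lists give no value per replicate. A stricter threshold could not be applied, since the score is 0 in every row.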
